A study of Solenopsis invicta with 52 samples.

Results

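The brains compared here come from 7 SB/Sb workers of polygyne origin and 7 SB/SB workers of monogyne origin, all of which spent adult life in polygyne host colonies. They were taken by the group named in the sample titles, pBL for the first and mpBB for the second, and make up 14 of the 52 libraries of the series. Between these groups the supergene genotype and the colony of origin both differ and the form of the adult host colony is the same. The comparison of pBL against mpBB therefore holds the adult social surroundings and leaves genotype and origin together, and within it the part of each cannot be told apart.

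Each library is RNA-seq of 1 organ of a single minor worker of Solenopsis invicta, the red imported fire ant, given as read counts per gene. The workers grew up in laboratory-kept stock colonies from Florida and were moved as dark pupae into hosts of 250 leg-cut workers with egg-laying SB/Sb queens of unknown mating status. After 16 days there they were taken, aged 14 to 16 days and weighing 0.6 to 0.9 mg. Beside the comparison stand pBB, whose SB/SB workers had polygyne origin and polygyne hosts, and mBB, whose SB/SB workers had monogyne origin and monogyne hosts with an SB/SB queen, with 7 brains each. Gasters, the rear part of the abdomen, were measured in 6 pBL and 6 mpBB workers, of which 5 in each group also gave a brain library.

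Fire ant colonies are organised around one reproductive queen (monogyne) or several (polygyne), and this form follows a supergene, a stretch of a chromosome whose inversions keep many genes together as 1 inherited block. The SB haplotype recombines in SB/SB females, whereas the Sb haplotype is kept from recombining and is found in polygyne colonies, where SB/Sb females occur beside SB/SB nestmates. Because a worker's own genotype and the colony it lives in normally go together, transfer of pupae between colonies is a way to vary them apart. The gene identifiers of the files are not paired with gene names in the tables used here (0 of 16314 matched), so that genes are given by identifier and no role is assigned. For the same reason the brain label could not be checked against marker genes.

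The 7 pBL brains held 18935624 to 44801748 counts in genes and the 7 mpBB brains 14767221 to 46965975. None of 5 library measures (depth, shares of unmapped, multimapped and no-feature reads, genes with at least 10 counts) passed an exact two-sided permutation test between the groups, with unadjusted p from 0.273 to 0.964 and an adjusted p of 0.964 for each of the 5.  The libraries pBL replicates 2 and 6 stood apart, with a median correlation to the other brains over 3 median absolute deviations below the typical value, and outside this comparison so did mBB replicate 4. Genes with 10 counts or more numbered 13828 in pBL replicate 2 and 11083 to 12124 in the other pBL brains, and 10849 to 12744 in the mpBB brains. Each group held 3 individuals numbered under 140 and 4 numbered over 140, and titles named merged runs for 2 pBL and 3 mpBB brains.

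The SB/Sb brains differed from the monogyne-origin SB/SB brains in a small number of genes, and mostly upward. By edgeR's quasi-likelihood test with Benjamini-Hochberg adjustment, 60 genes out of 12006 (0.50%) had an adjusted p under 0.05, with 52 higher (0.433%) and 8 lower (0.0666%) in pBL. The log2 fold changes of the higher genes had a median of 2.55 and ran from 0.31 to 7.84, leaving aside 1 gene without counts in mpBB, for which only a lower bound can be given, while the median over all tested genes was 0.01. Of the 52 higher genes, 44 were over 2-fold and 16 over 16-fold. Those of the 8 lower genes had a median of -0.93, and 3 of them passed a 2-fold difference. In whole brains a change in the number of cells of a type and a change in RNA per cell cannot be told apart. With the 3 distant libraries left out the test called 58 genes (49 higher, 9 lower), and 52 of these belong to the 60.

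**Figure D1:**
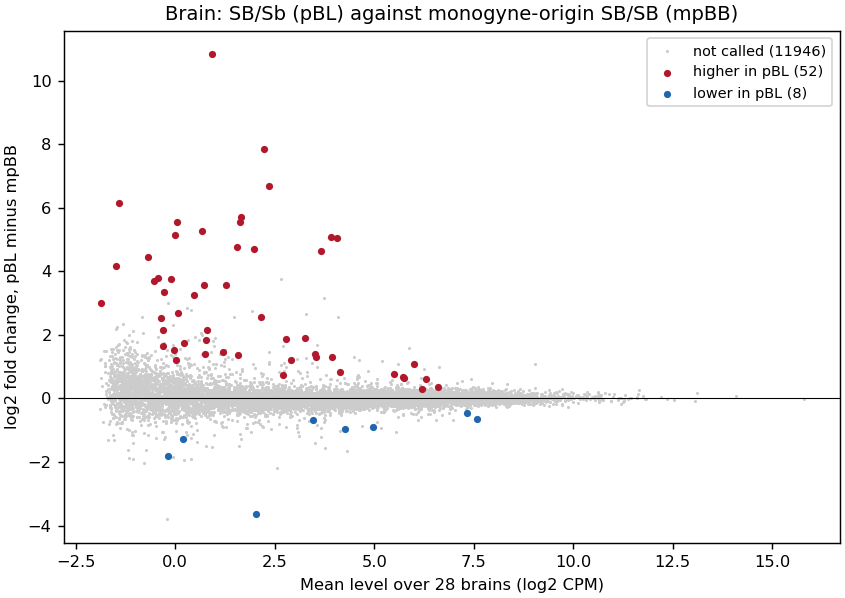
Each point is 1 of 12006 genes tested in brain, with its mean level over 28 brains on the x axis (log2 CPM, a gene's counts relative to the scaled library total) and its log2 fold change, pBL minus mpBB, on the y axis. Red points (52) are called higher in pBL and blue points (8) lower, and the high fold changes lie at low mean levels.

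For 43 of the 52 higher genes every pBL brain lay above every mpBB brain, for 6 genes 6 of 7 pBL brains did, and for 3 genes 5 of 7 did. Such a full separation upward was met in 49 of all tested genes (0.408%). The lower genes were less separated, with 1 of 8 below every mpBB brain in 7 of 7 pBL brains and 4 more in 6 of 7. In all, 2 tested genes (0.0167%) were fully separated downward. The called genes were chosen on these same brains, which largely fixes how far they separate.

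**Figure D2:**
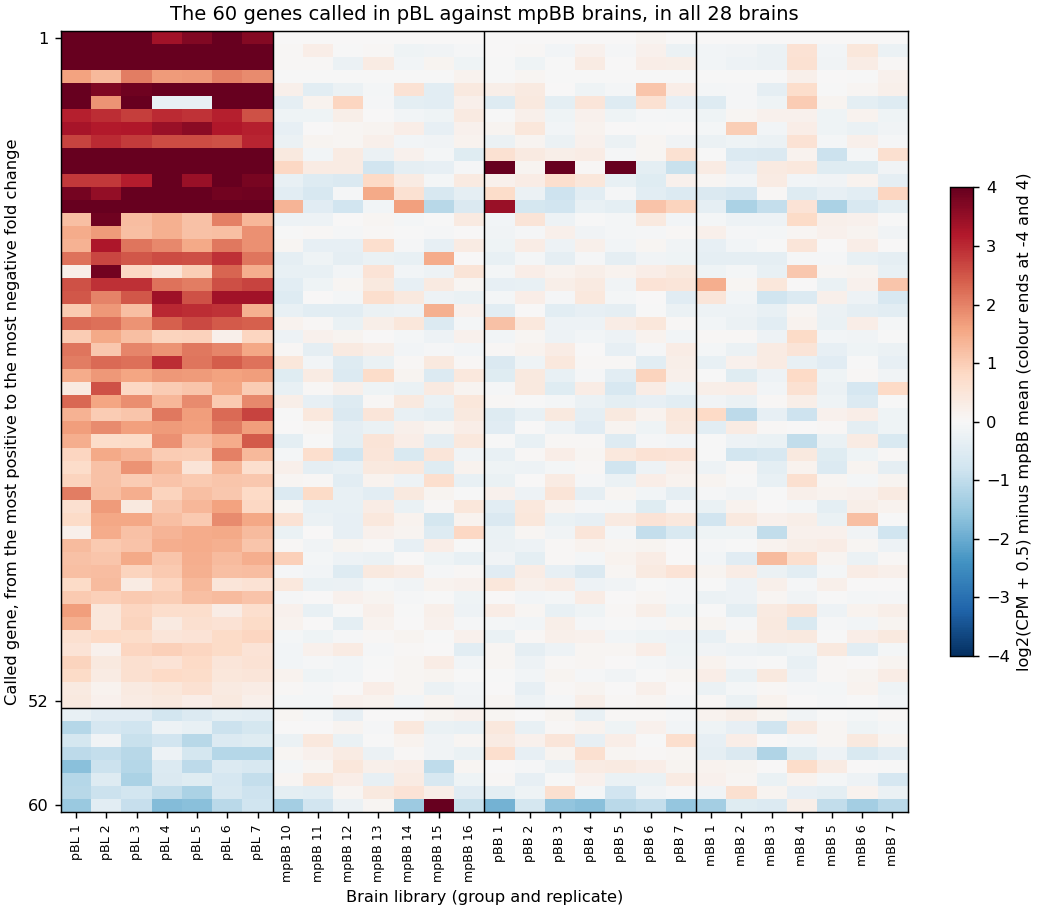
Rows are the 60 called genes from the most positive to the most negative fold change, with the 52 higher genes above the line and the 8 lower genes below it. Columns are the 28 brains by group, and colour gives log2(CPM + 0.5) minus the mpBB mean. The pBL columns stand apart in most rows, and single dark cells outside pBL mark genes that were on in individual SB/SB brains.

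The higher genes fell into those that were near-silent in other SB/SB brains and those that were already expressed there. A gene was counted as near-silent when it averaged under 1 CPM in both the pBB and the mBB brains. That held for 5786 of 16314 genes, of which 1481 passed the filter on low counts. The pBB and mBB brains are on neither side of pBL minus mpBB. They do enter its filter, its scaling and its estimate of spread, so that the split is not independent of the calls. Of these 1481 genes 30 were called higher (2.03%) and 0 lower, and of the other 10525 tested genes 22 were called higher (0.209%) and 8 lower (0.0760%). A gene silent in SB/SB brains can pass the filter through its pBL level alone and has little room to fall, so that these shares are a description.

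Among the 30 near-silent genes the log2 fold change was 3.73 at the median and 1.20 to 7.84 in range, again leaving aside that gene, at a median level of 3.39 CPM in pBL and 0.249 CPM in mpBB. Setting that gene to its bound leaves the median as it is, since the bound lies above it. Their summed level ran from 142 to 185 CPM over the 7 pBL brains with a median of 165 CPM, and from 7.01 to 15.3 CPM over the 7 mpBB brains with a median of 10.4 CPM. The groups do not overlap, which the choice of the genes largely fixes. In single pBL brains 24 to 29 of the 30 genes reached 1 CPM, against 0 to 4 in single mpBB brains. Of the 30 genes 20 reached 1 CPM in 7 of 7 pBL brains, 5 in 6, 1 in 5, 3 in 3 and 1 in a single pBL brain. Without the distant libraries 26 near-silent genes were called higher.

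The 5756 near-silent genes that were not called higher summed to a median of 849.7 CPM in pBL brains (749 to 3928) and 915 CPM in mpBB brains (842 to 1422), and the ranges overlap. The top of the pBL range was replicate 2, at 3928 CPM, followed by replicate 6 at 1719 CPM, and 1366 and 352 of these genes reached 1 CPM in those libraries, against 81 to 220 in the mpBB brains. The median log2 fold change of all 1481 tested near-silent genes was 0.23, and without the distant libraries it was -0.27, so that its direction rests on those libraries.

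SINVBB1_10484e had the largest fold change among called genes with a mean above 1 on the log2 CPM scale over the 14 brains. It had 4.58 CPM in the lowest, 7.43 in the median and 10.9 in the highest pBL brain, from 125 to 275 counts each. In the 7 mpBB brains it had 0 counts, and in the 21 brains outside pBL there was a single count, in pBB replicate 6. Against the limit of 3 counts over the mpBB group, 0.0146 CPM, the pBL mean of 7.38 ± 2.13 CPM (SD, n = 7) was at least 507-fold higher (adjusted p = 1.71e-09 by edgeR). The same gene was almost unread in gaster, at 0 to 0.158 CPM in pBL gasters, with 0 counts in the 6 mpBB gasters.

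The 22 higher genes that were expressed in SB/SB brains had log2 fold changes of 0.31 to 5.09, with 1.30 at the median. Their median level was 26.5 CPM in pBL and 6.68 CPM in mpBB. Of these, 8 were at or under a 2-fold difference. As a sum they reached 814 to 1012 CPM in pBL brains and 447 to 519 CPM in mpBB brains, without overlap. The choice of the genes on these same brains largely fixes this gap. The median SD of these genes between brains of a group was 0.180 in pBL and 0.268 in mpBB on the log2(CPM + 0.5) scale, and that of all tested genes was 0.315 in pBL and 0.244 in mpBB. Genes called by a small p are partly chosen for a low spread.

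SINVBB1_06655 had the smallest p among genes with a mean of at least 1 CPM in both groups. Its level was 47.5 CPM in the lowest, 55.0 in the median and 65.9 in the highest pBL brain, against 1.00, 1.49 and 2.21 CPM in the mpBB brains. All pBL brains lay far above all mpBB brains, with means of 55.2 ± 6.42 and 1.63 ± 0.449 CPM (SD, n = 7 each) and a log2 fold change of 5.09 ± 0.25 (SE, adjusted p = 2.14e-14 by edgeR). The pBB brains had 2.12 ± 0.447 CPM and the mBB brains 1.44 ± 0.712 CPM.

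In gaster this gene was well expressed in both groups, at 88.4 ± 7.87 CPM in pBL and 88.3 ± 17.2 CPM in mpBB (SD, n = 6 each), and its log2 fold change there was 0.00 ± 0.15 (adjusted p = 1.00 by edgeR). In a joint edgeR fit of both tissues the log2 change differed by -5.12 ± 0.28, gaster minus brain (SE, adjusted p = 3.2e-19). That fit treats both tissues of the same worker as independent. With the individual as a block the difference was -5.15 (adjusted p = 2.3e-07 by edgeR). Tissue and library kit go together, so that their parts cannot be told apart.

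**Figure D3:**
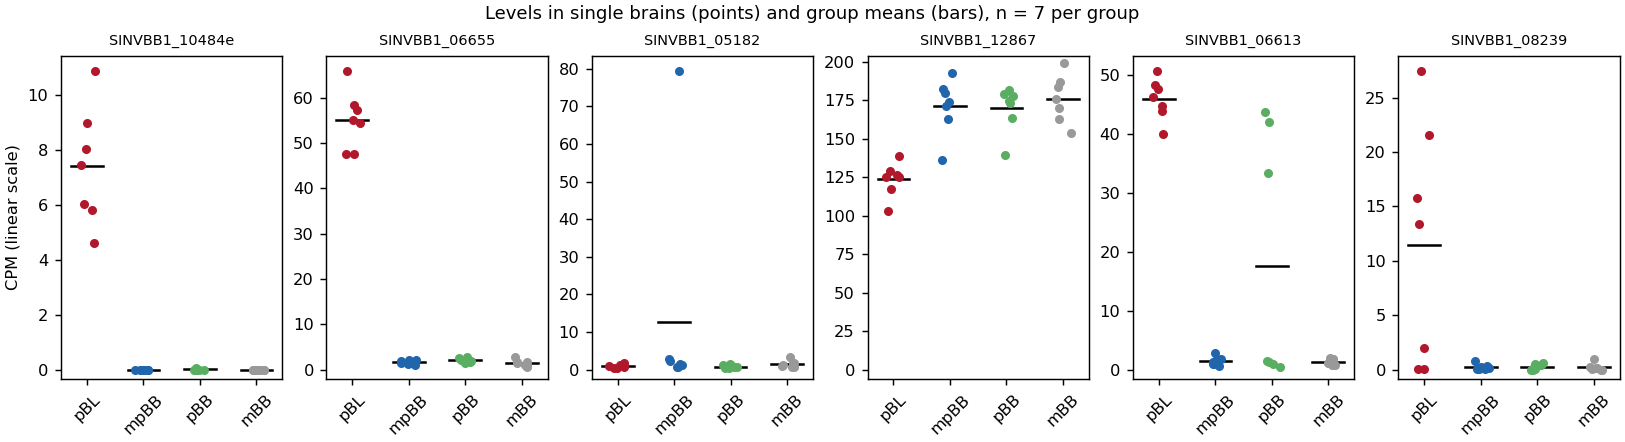
CPM of 6 genes in single brains, shown as points on a linear axis that starts at 0, with group means as bars and 7 brains in each of pBL, mpBB, pBB and mBB. SINVBB1_10484e and SINVBB1_06655 are high in every pBL brain, the mpBB mean of SINVBB1_05182 rests on 1 brain, and SINVBB1_06613 is high in 3 of 7 pBB brains.

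Within the SB/Sb brains some genes were not on in every worker. SINVBB1_08239, chosen after its values were seen, had 13.4 to 27.5 CPM in pBL replicates 1, 3, 6 and 7 and 1.97 CPM in replicate 2. In pBL replicates 4 and 5 it had 0.0734 and 0.0793 CPM, 2 counts each, within the mpBB range of 0.0346 to 0.788 CPM. The group difference was called, with a log2 fold change of 5.56 ± 1.06 (SE, adjusted p = 0.00393 by edgeR), although 2 of 7 pBL brains overlapped the mpBB brains. The gaster of the worker pBL replicate 5 also had 2 counts, 0.0313 CPM, whereas the other 5 pBL gasters had 1.98 to 7.97 CPM and the mpBB gasters 0.0136 to 0.226 CPM. Within individuals numbered under 140 the log2 fold change was 6.002 (adjusted p = 0.135) and within those over 140 it was 5.29 (adjusted p = 0.570), from fewer libraries.

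The 8 lower genes were not near-silent by the rule above, with a median level of 8.84 CPM in pBL and 16.7 CPM in mpBB. Some were low all the same, as 6 to 7 of the 8 reached 1 CPM in single pBB brains and 6 to 8 in single mpBB brains. SINVBB1_05182 averaged 0.818 CPM in pBB. Summed over the 8 genes the pBL brains had 264 to 340.2 CPM and the mpBB brains 431 to 535 CPM. The choice of the genes on these same brains largely fixes this gap as well. The sums describe mainly 2 of the 8 genes, SINVBB1_12867 among them, which averaged 100 CPM or more over the 28 brains. The count of lower genes moved with single libraries. It was 5 without mpBB replicate 11 or 14 and without pBL replicate 1, 3 or 6, and 4 without pBL replicate 7.

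SINVBB1_12867 had the smallest p of the other lower genes and a modest change. Its level was 103 CPM in the lowest, 125 in the median and 139 in the highest pBL brain, against 136, 174 and 193 CPM in the mpBB brains. Only pBL replicate 1, at 139 CPM, reached into the mpBB range, past mpBB replicate 12 at 136 CPM. The means were 124 ± 11.01 and 171 ± 18.1 CPM (SD, n = 7 each) and the log2 fold change was -0.47 ± 0.08 (SE, adjusted p = 0.000789 by edgeR). The pBB brains, at 170 ± 14.7 CPM, and the mBB brains, at 176 ± 15.2 CPM, were close to mpBB. The call ended within individuals numbered under 140 (adjusted p = 0.0820) and over 140 (adjusted p = 0.196), at log2 fold changes of -0.51 and -0.43, and leaving out 1 brain kept it (adjusted p from 7.79e-05 to 0.00328).

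The most negative fold change among the called genes belonged to SINVBB1_05182 and rested on 1 brain. The pBL brains had 0.477 to 1.90 CPM with a median of 1.03, and the mpBB brains 0.685 to 79.4 CPM with a median of 1.38. The top value was that of mpBB replicate 15, and the other 6 mpBB brains had at most 2.92 CPM. The log2 fold change was -3.63 ± 0.86 (SE, adjusted p = 0.0452 by edgeR), and without mpBB replicate 15 it was -0.59 (adjusted p = 1.00). Over 26 alternatives the adjusted p ran from 0.0202 to 1.00. The call also ended without any 1 of the 7 pBL brains, at adjusted p from 0.0633 to 0.125, with log2 fold changes of -3.84 to -3.52. In gaster the levels were 21.8 ± 9.61 CPM in pBL and 31.0 ± 12.7 CPM in mpBB (SD, n = 6 each), the gene did not pass (adjusted p = 1.00), and mpBB replicate 15 was again the highest mpBB library, at 51.8 CPM.

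Origin and genotype can be set apart with the other SB/SB groups. In the same fit, pBL against pBB holds the origin and compares genotypes, and pBB against mpBB holds the genotype and compares origins. The comparisons share the pBL or the mpBB libraries, so that their values are given side by side only. The 52 higher genes had median log2 fold changes of 2.55 for pBL minus mpBB, 2.52 for pBL minus pBB and -0.01 for pBB minus mpBB. The 8 lower genes had -0.93, -0.98 and 0.01. For pBB minus mpBB, 0 of the 12006 tested genes passed by edgeR, and DESeq2 called 1. By edgeR 188 had an unadjusted p under 0.05, a share below the 0.05 that chance alone gives. The test was thus cautious here, and the lack of calls does not show that origin made no difference.

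The mean of pBB was nearer to mpBB than to pBL on the log2(CPM + 0.5) scale for 51 of the 52 higher and 7 of the 8 lower genes, and for 51.6% of all tested genes. For mBB, which also differs from pBL in host form, it was 52 of 52 and 6 of 8, and 60.2% of all tested genes. The called genes were chosen for a gap between pBL and mpBB in these same brains, which most tested genes lack. The shares over all tested genes are therefore not a like base, and these counts are a description. Among the lower genes the pBB exception was SINVBB1_05182, with the single high mpBB brain. Summed over the 22 expressed higher genes, pBL brains had 950.5 ± 68.5 CPM, mpBB brains 485 ± 22.8 CPM, pBB brains 502 ± 37.6 CPM and mBB brains 480.1 ± 32.03 CPM (SD, n = 7 each).

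SINVBB1_06613, the exception among the higher genes, is named because of its values, which were seen first. This gene had 39.9 to 50.7 CPM in pBL brains and 0.576 to 2.74 CPM in mpBB brains, without overlap (log2 fold change 5.03 ± 0.78, SE, adjusted p = 0.000238 by edgeR). The pBB brains split, with 33.4 to 43.6 CPM in replicates 1, 3 and 5 and 0.477 to 1.46 CPM in the other 4, while the mBB brains had 0.803 to 1.95 CPM. The pBB gasters of replicates 1, 3 and 5 had 5.04 to 6.93 CPM and the other 3 had 0.0847 to 0.497 CPM, against 7.02 to 12.7 CPM in pBL gasters and 0.167 to 0.935 CPM in mpBB gasters. The gene was thus high in all 7 SB/Sb brains, in 3 of 7 SB/SB brains of polygyne origin and in 0 of 14 SB/SB brains of monogyne origin. The test of the origin difference itself, pBB minus mpBB, gave 3.65 ± 0.74 (SE, adjusted p = 0.367 by edgeR) and passed with DESeq2 (adjusted p = 0.00166). Within individuals numbered under 140 its pBL minus mpBB log2 fold change was 4.79 (adjusted p = 0.0942) and within those over 140 it was 5.24 (adjusted p = 0.0804), so that the call ended in these smaller sets.

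In gaster the same comparison called 62 of 11574 genes (0.536%), 55 higher (0.475%) and 7 lower (0.0605%) in pBL. Every pBL gaster lay above every mpBB gaster for 66 of these tested genes (0.570%) and below for 16 (0.138%). Of the 52 genes higher in brain 48 were tested in gaster, where 22 were called higher and 1 lower. Of the 8 genes lower in brain 7 were tested, and 1 was called lower and 0 higher. Their median log2 fold changes in gaster were 1.13 and -0.51, against 2.35 and -0.89 for the same genes in brain. These genes were chosen for their brain changes, which makes the brain medians larger in size. The gap between the tissues is therefore a description. Gaster libraries were made with another kit, and 5 workers of each group are the same as in brain, so that the tissues are not independent samples of workers.

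**Figure D4:**
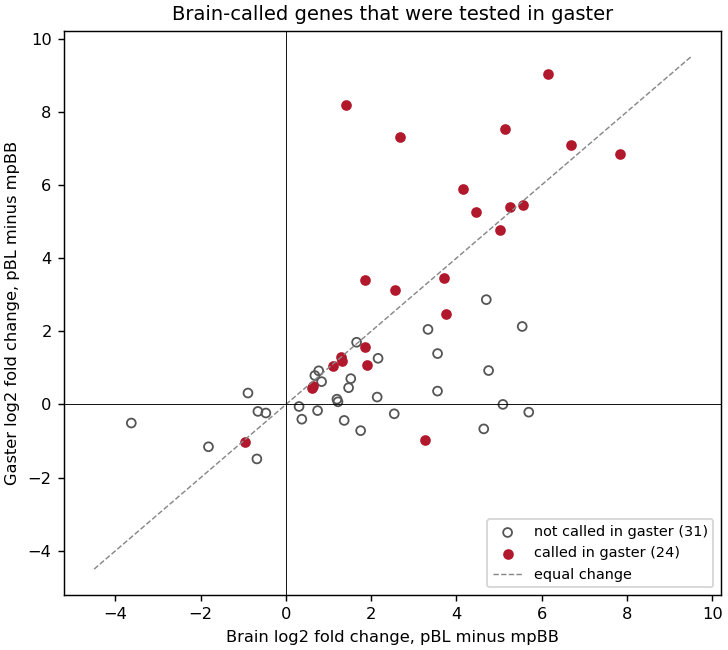
Each point is 1 of the 55 brain-called genes tested in both tissues, with the log2 fold change of pBL minus mpBB in brain on the x axis and in gaster on the y axis. Filled points (24) were called in gaster, and the dashed line marks equal change. Many called points lie near that line, and a row of open points lies near 0 in gaster at brain changes up to and above 5.

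The near-silent higher genes were split by their level in the gaster. Of the 27 tested there, 15 averaged under 1 CPM in mpBB gasters as well, and 12 of these 15 were called higher in pBL gasters, with a median log2 fold change of 5.41 in gaster and 4.45 in brain. The other 12 averaged at least 1 CPM in mpBB gasters, and of these 0 were called higher and 1 lower, with medians of 0.28 in gaster and 2.90 in brain. Over all genes tested in gaster, 35 of 1858 under 1 CPM in mpBB gasters (1.88%) and 20 of 9716 at or above it (0.206%) were called higher. A gene under that level can enter the gaster test through its pBL level, and the level is also the base of the fold, so that the split is a description. The brain medians are those of genes chosen on brain values.

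A test of the difference between tissues, in a joint fit of 13452 genes, called 34 genes (0.253%), among them 13 of the 52 higher and 1 of the 8 lower genes. That fit does not use that 5 workers of each group gave both tissues. With the individual as a block, in those workers, 22 genes were called, among them 6 of the 13 and the same lower gene. In the joint fit 11 of the 13 higher genes had the larger change in brain and the others did not. The lower gene also had its larger change in brain. The higher and lower genes were chosen for their changes in these same brains, which by itself favours a difference between tissues. Their share among the calls of both fits is therefore a description.

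The workers pBL replicate 8 and mpBB replicate 17 gave a gaster but no brain library and took no part in the brain calls. The gaster of pBL replicate 8 was above that of mpBB replicate 17 for 38 of the 48 higher genes tested there (79.2%), against 50.1% of the 10661 genes tested in both tissues. For the 7 lower genes it was above that of mpBB replicate 17 for 2 (28.6%). Against all 6 mpBB gasters, 5 of which come from workers whose brains entered the calls, pBL replicate 8 lay above every one for 32 of the 48 higher genes (66.7%) and below every one for 4 (8.33%). For the 7 lower genes it lay above every one for 0 and below every one for 3 (42.9%). Of the 10661 genes tested in both tissues it lay above every one for 1487 (13.9%) and below every one for 1388. These are values of single workers and have no replicate check. A gene low in mpBB gasters can enter the gaster test through the pBL gasters, replicate 8 among them. The filter thus fixes a part of these shares, which are a description.

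The called genes were unevenly spread over the row order of the deposited files. The order is the same in every file, and what it follows is not given in the sources used here. In blocks of 500 rows, blocks 10 and 11 (rows 4501 to 5500) held 31 of the 60 calls, 25 higher and 6 lower, among 802 tested genes (3.87%), and the other 31 blocks held 29 calls among 11204 (0.259%). In gaster, where calls were made on other libraries, the same rows held 29 of 62 calls among 800 tested genes (3.62%), against 33 among 10774 (0.306%) elsewhere. The blocks were picked for their brain calls, so that the brain share is a description. Of the 6 gaster workers in each group 5 also gave a brain, so that the gaster share is no independent check.

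**Figure D5:**
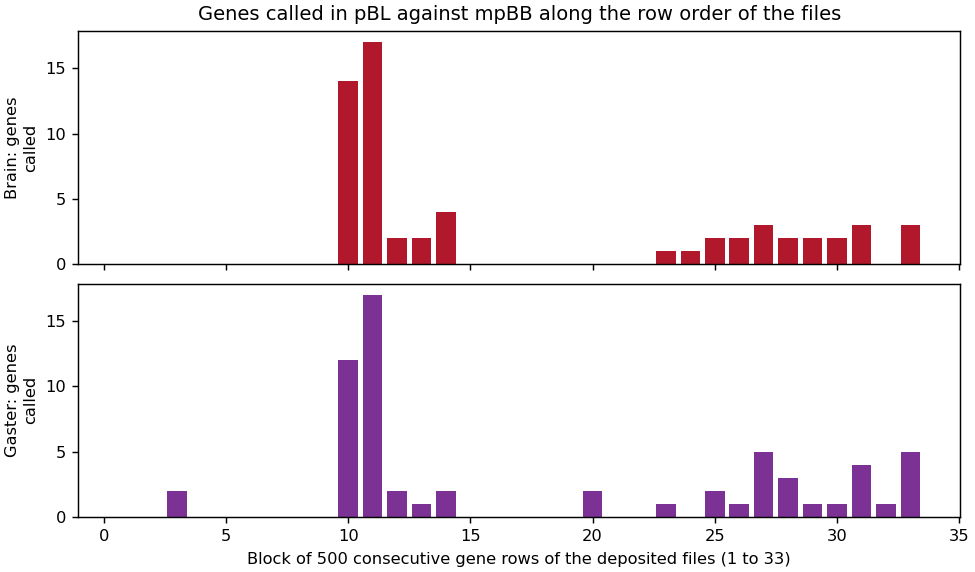
Bars count genes called in pBL against mpBB in each block of 500 rows of the deposited files, in brain above and in gaster below. Blocks 10 and 11 stand out in both tissues, with 14 and 17 calls in brain and 12 and 17 in gaster.

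Of the 25 higher genes in rows 4501 to 5500, 9 were near-silent in pBB and mBB brains, and of the 27 higher genes elsewhere 21 were. Near-silent genes made up 93 of the 802 tested genes in those rows (11.6%) and 1388 of the 11204 elsewhere (12.4%). Of the near-silent genes tested, 9.68% were called higher in those rows and 1.51% elsewhere. For the expressed genes these shares were 2.26% (16 of 709) and 0.0611% (6 of 9816), so that both kinds were called more often in those rows. The blocks were picked for their calls, and these differences were not tested. SINVBB1_06655, SINVBB1_12867, SINVBB1_06613 and SINVBB1_08239 lie in these rows, and SINVBB1_10484e and SINVBB1_05182 do not. The median log2 fold change of all 802 tested genes there was 0.03, against 0.01 elsewhere. Without the distant libraries 30 calls fell in these rows.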

How the data were processed

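RNA-seq counts of reads per gene were taken as the authors deposited them, raw, in 3 columns (unstranded and each strand). Per the submitters' processing notes Trim Galore, STAR and edgeR were used. The sources used here give no versions, genome build or annotation. Per the labels' protocols a SMARTer low-input kit was used for brains and a stranded KAPA kit for gasters. The reverse strand held 49.9% to 50.1% of strand counts in the 14 brains. The unstranded column was therefore used for brain, and the reverse-strand column for gaster alone. Fits of both tissues together, also with the individual as a block, used the unstranded column for both. Brain reads of overlapping or antisense genes cannot be told apart. Near-identical copies are uncertain. The 4 rows that name no gene, 58.4% to 74.7% of reads in the 14 brains, were left out. Precision rests on 14767221 to 46965975 gene counts per brain.

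In R 4.3.3 with edgeR 4.0.16, genes were filtered by group, scaled by TMM and fitted with all 4 groups of the tissue, by the quasi-likelihood test at an adjusted p of 0.05 with Benjamini-Hochberg adjustment. CPM is relative to the TMM-scaled library. Replicates are single workers. Per the labels a stock colony gave or received pupae once per treatment. Where workers of a group shared a transfer, p-values measure the spread between workers only. The tests were checked on simulated counts. Alternatives were DESeq2 1.42.0, RLE factors, filters, sva 3.50.0 (5 variables), covariates, parts of the individuals, a 1.5-fold minimum and leaving out libraries.

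The members and lists were chosen with earlier results of these data known. Named genes are, of the called genes whose log2 CPM averaged above 1, the largest change in each direction, the smallest p among higher genes at 1 CPM or more in both groups, and the smallest p of the other lower genes. Gene lists and markers that need names were not run. pBL and mpBB share 0 replicate numbers. Brains of pBL and pBB with the same number deviated together in 7 of 7 pairs (correlation 0.143 to 0.497), over the limit of 0.1, so that these numbers were taken to pair them, although no label states what the number stands for.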

Additional observations from a re-analysis of the deposited data

Results flagged for a closer look

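In 16 of 63 groups of libraries checked, 1 library lay apart from the others by more than Dixon's 95% limit. Chance exceeds that limit in about 1 in 20 groups where values are normally distributed. CPM near 0 is skewed, a lone count among zeros always exceeds the limit, and some groups share genes. No excess over chance can therefore be read from the 16. Among the genes named, SINVBB1_05182 stood at 79.4 CPM in brain mpBB replicate 15, at 3.27 CPM in brain mBB replicate 4 and at 59.04 CPM in gaster pBB replicate 8. SINVBB1_08239 stood at 0.788 CPM in brain mpBB replicate 12, 0.934 CPM in brain mBB replicate 4, 0.226 CPM in gaster mpBB replicate 10 and 0.0620 CPM in gaster pBB replicate 6. SINVBB1_06613 stood at 0.935 CPM in gaster mpBB replicate 10. SINVBB1_06655 stood at 101 CPM in gaster mBB replicate 1, and SINVBB1_12867 at 139 CPM in brain pBB replicate 4. SINVBB1_10484e had 0.0413 CPM, its single count, in brain pBB replicate 6.

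Of the library values, pBL replicate 2 had 13828 genes with at least 10 counts and summed to 4074 CPM over the 5786 near-silent genes, or 3928 CPM without the 30 called higher. The total of pBL replicate 7 was 44.8 M counts (44801748), and the multimapped share of mpBB replicate 12 was 9.72%. The change of SINVBB1_06655 differed between tissues, with a gaster minus brain difference of -5.12 on the log2 scale.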

How the results depend on the processing

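The count of genes called for pBL minus mpBB in brain was within 1.5 times of 60 in 23 of 26 alternatives. It was 14 (14 higher, 0 lower) within individuals numbered under 140, 36 (1 lower) within those over 140, where fewer libraries enter, and 29 (29 higher, 0 lower) against a 1.5-fold minimum. Leaving out 1 brain, which makes up 14 of the 26 alternatives, gave 50 to 59 genes, 45 to 51 higher and 4 to 9 lower. Those 14 share nearly all libraries with the main fit, so that a similar count is likely in advance. DESeq2 called 78. The lower count was 3 with both groups fitted alone, 5 with a covariate for merged runs and 13 with surrogate variables, and the cause was not tested. SINVBB1_05182 lost its call in 17 of 26 alternatives. DESeq2 called 102 genes for pBL minus pBB (87 higher, 15 lower), 1 for pBB minus mpBB (1 higher), and 105 in gaster (86 higher, 19 lower). With the individual as a block, among 10 workers, 22 genes differed between tissues, 8 of them more positive in brain. The 0.5 CPM limit gave a mean summed level of 537 CPM for near-silent genes in mpBB, a smaller set by construction, and without the distant libraries, an alternative chosen after seeing the data, the median log2 fold change of near-silent genes was -0.27. No paired analysis was possible for pBL minus mpBB because the groups share no replicate number. For pBL minus pBB the replicate block gave 67 genes, 58 higher and 9 lower, against 62, and it ended that call for SINVBB1_08239 (log2 fold change 5.00, adjusted p = 0.198) and for no other named gene. Without the filter on low counts 15966 genes were tested and 66 called, 56 of them among the 60.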

Other observations

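Identifiers that end in a letter made up 5 of the 60 called genes (8.33%), against 336 of the 12006 tested genes (2.80%). The labels do not say what the letter marks. Among the called genes 18 had another called gene in the adjacent row of the files, and the longest run was 4 consecutive rows. Reads shared by neighbours cannot be told apart in brain, where strand is not marked. By mean level over the 28 brains, 1.03% of the 1553 tested genes under 1 CPM were called, 0.915% of the 2732 at 1 to 10 CPM, 0.310% of the 5482 at 10 to 100 CPM and 0.0893% of the 2239 at 100 CPM and over.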
